A study of Mus musculus with 12 samples.

Results

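Heat shock proteins and J-domain co-chaperones were examined in CD11b+ hippocampal microglia of mice after cranial X-ray or sham treatment. The genes were chosen by symbol: those starting with Hspa, Hspb, Hspd, Hspe, Hsph, Hsp90 or Dnaj, without Hspa5, Hsp90b1, Dnajb9 and Hspg2. This gave 69 of the 18193 genes with a named probe set, and 50 of the 69 were bright enough to test, among 9120 such genes in all. A gene was tested when its brightest probe set exceeded a log2 value of 5 in at least 3 of the 12 arrays. Hsp90ab1 and Dnajc19 had no probe set of their own in the annotation used and were not analysed here. The 4 groups were sham C57BL/6, irradiated C57BL/6, sham Balb/c and irradiated Balb/c, with 3 female mice and 3 arrays in each. Mice were anaesthetised with ketamine and xylazine at an age of 6.5 weeks, and irradiated mice received 10 Gy to a round field of 1 cm over the forebrain. All animals were analysed 1 month later, at 10.5 weeks, so the values describe a late state and not the hours after the dose. C57BL/6 and Balb/c are inbred strains, and each array held RNA from 5000 to 10000 sorted cells of 1 mouse. CD11b also marks other myeloid cells, which the sort keeps.

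Chaperones of the HSP70 family bind unfolded stretches of other proteins and release them in a cycle driven by ATP. J-domain proteins, named Dnaj, deliver the client and switch on the ATPase, while nucleotide exchange factors such as the HSP110 proteins reopen the cycle. HSP90 takes over clients such as kinases and receptors, small heat shock proteins hold unfolded proteins until HSP70 acts, and HSP60 with its lid HSP10 folds proteins inside mitochondria. Under proteotoxic stress heat shock factor 1 binds repeats of the letters GAA in alternating direction and induces a subset of these genes, among them the inducible HSP70 genes Hspa1a and Hspa1b. In macrophages and microglia, chaperones of this kind are also known for roles in stress tolerance, antigen handling and the turnover of signalling proteins.

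The values were log2 signals from Affymetrix arrays processed with GCRMA, and a log2 difference of 1 means a 2-fold difference. All arrays had the same distribution of values, with a median of 2.44. Microglial markers were bright in every array: 11 of 12 were on the array, all passed the filter, and their summed signal was 17.10 to 17.33 on the log2 scale in all groups. Single microglial markers still differed (limma, adjusted p under 0.05): Trem2 between irradiated and sham Balb/c arrays, and Olfml3 between the sham strains. Markers of some other cells were higher in irradiated arrays, and in bulk samples more cells of a type cannot be told apart from more RNA per cell, nor fewer cells from less RNA. The summed signal of the monocyte markers, 9 of 10 on the array with F10 near the bottom of the scale, was 9.13 to 10.20 in C57BL/6 sham and 10.99 to 11.40 in C57BL/6 irradiated arrays. In Balb/c it was 9.69 to 10.03 in sham and 10.59 to 11.18 in irradiated arrays. Of the monocyte markers, Ccr2, Cd44, Fn1 and S100a4 passed between irradiated and sham arrays in C57BL/6, and Cd44 and Fn1 in Balb/c. The 10 astrocyte markers, none near the bottom, summed to 13.55 to 14.10 and 14.30 to 14.85 in C57BL/6 sham and irradiated arrays, and to 13.75 to 14.21 and 14.65 to 15.23 in Balb/c. Gfap, Aqp4, Gja1 and Sox9 passed in Balb/c. The endothelial and pericyte markers, 9 of 10 on the array with Pecam1 near the bottom, summed to 12.42 to 12.66 and 12.76 to 13.29 in C57BL/6 and to 12.43 to 13.25 and 13.71 to 14.08 in Balb/c. Slco1a4, Pdgfrb, Rgs5 and Vtn passed in Balb/c. Neutrophil markers, 8 of 10 on the array with 4 above the filter and Mmp8 and Elane near the bottom in all groups, summed to 8.84 to 11.19 and 8.89 to 11.32 in C57BL/6 and to 6.82 to 7.36 and 9.75 to 11.81 in Balb/c, and S100a8 and S100a9 passed in Balb/c. The T and NK cell markers, 9 of 11 on the array with 1 above the filter, summed to 6.21 to 7.32 and 7.84 to 8.70 in C57BL/6 and to 5.43 to 5.46 and 5.45 to 8.35 in Balb/c. Cd3e, Cd3d, Cd3g, Cd2, Cd8a, Cd4, Nkg7 and Ncr1 were near the bottom in all groups. Gzma was there in Balb/c sham arrays only, so the higher sums rest on Gzma alone. Border-associated macrophage markers summed to 13.33 to 14.45 and 14.32 to 14.64 in C57BL/6 sham and irradiated arrays. In Balb/c they summed to 12.96 to 13.19 and 13.58 to 13.93, and Mrc1 and F13a1 passed there. The oligodendrocyte markers, 8 of 9 on the array and all above the filter, were the brightest list after the microglial one. They summed to 15.62 to 16.06 and 15.78 to 16.01 in C57BL/6 sham and irradiated arrays. In Balb/c the oligodendrocyte sums were 15.17 to 15.91 and 15.44 to 15.90, so the treatments overlapped in both strains. The control probe sets of Actb and Gapdh gave brighter signals at the 3' than at the 5' end, and this 3' excess, which grows as RNA products shorten, was 4.82 in Balb/c irradiated replicate 2 and 4.21 in replicate 3, against 3.50 to 3.81 in the other 10 arrays. The part of the markers in the results that follow was not tested, and the 3' excess entered an alternative fit as a covariate.

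Of the 69 genes, 50 exceeded 5 in all 12 arrays, with a lowest value of 5.15, and the other 19 exceeded it in none, with a highest value of 4.45. The filter therefore took no gene in on account of 1 group. The tested genes comprised 9 of 12 in the HSP70 family, Hsp90aa1, the 3 mitochondrial chaperones Hspa9, Hspd1 and Hspe1, and 5 of 10 with Hspb symbols. They also comprised all 4 of DnaJ class A, 8 of 12 of class B and 20 of 27 of class C. Among the Hspb symbols, Hspb11 is a protein of ciliary transport and Hspbp1 an exchange factor of HSP70, both taken in by the letters of their names. By the third highest value, which the filter uses, the genes just inside were Dnajc18 at 5.77 and Hspbp1 at 6.17, and those just outside were Hspa12a at 4.06 and Dnajc28 at 3.86. Some genes with mainly testis or muscle expression, such as Hspa1l, Dnajb3, Dnajb8 and Hspb7, stayed at the bottom of the scale, between 2.23 and 2.26. Others did not: Hspa2, best known from the testis, and Hspb3, known from muscle, passed the filter.

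Replicates of these genes lay close together. The median standard deviation within groups was 0.163 on the log2 scale over the 50 genes and 0.217 over all genes tested, and 31 of the 50 lay below the latter. The 4 most variable were Hspa1a at 0.63, Hspa4l at 0.60, Hspa1b at 0.59 and Dnajc16 at 0.51, between the percentiles 91.2 and 94.9 of all genes tested. The inducible HSP70 pair was thus among the most variable genes between mice of 1 group, and single arrays decided several of its values.

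The 250 bases before the annotated start of 3 genes are shown because Hspe1 carries the clearest strain difference and because the Hspa1a and Hspa1b windows are nearly the same. The windows come from a single reference build and do not compare the strains. Capitals mark pairs of inverted GAA units, the core of the element that heat shock factor 1 recognises. The pairs searched were GAANNTTC and TTCNNGAA, which read the same on both strands and can overlap. The sequences are from RefSeq on build GRCm38.p6, 5′ to 3′ on the strand of the gene, at chr1:55087898-55088147 (+) for Hspe1, chr17:34959239-34959488 (-) for Hspa1b and chr17:34972157-34972406 (-) for Hspa1a.
Hspe1: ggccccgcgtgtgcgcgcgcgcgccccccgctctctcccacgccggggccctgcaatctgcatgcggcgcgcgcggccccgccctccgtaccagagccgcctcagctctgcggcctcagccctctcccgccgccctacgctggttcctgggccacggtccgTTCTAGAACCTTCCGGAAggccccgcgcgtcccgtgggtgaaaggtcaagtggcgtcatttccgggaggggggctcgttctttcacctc
Hspa1b: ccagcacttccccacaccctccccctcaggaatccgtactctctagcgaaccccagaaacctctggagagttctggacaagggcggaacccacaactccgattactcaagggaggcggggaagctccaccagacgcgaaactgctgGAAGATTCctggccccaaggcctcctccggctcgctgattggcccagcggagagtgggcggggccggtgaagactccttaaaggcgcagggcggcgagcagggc
Hspa1a: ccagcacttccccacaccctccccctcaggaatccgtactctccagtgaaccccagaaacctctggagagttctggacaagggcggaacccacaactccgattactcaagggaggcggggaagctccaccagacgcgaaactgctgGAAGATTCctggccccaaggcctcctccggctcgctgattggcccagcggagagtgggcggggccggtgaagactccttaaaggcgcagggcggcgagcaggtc

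In Hspe1 the capitals run over 18 bases, from -89 to -72 before the start. The gene lies head to head with Hspd1, and 1 of the 2 annotated Hspd1 windows shares 215 bases with that of Hspe1, so the same run lies at -144 to -127 before that Hspd1 start on the other strand. The Hspa1a and Hspa1b windows agree at 247 of 250 positions, and their pair lies at -104 to -97 in both. At least 1 pair was found in 14 of the 56 windows of tested chaperone genes, or 25.0%, against 12.8% of all 32851 windows of the same length. By gene this was 12 of 41, or 29.3%, against 14.5% of all 27025 genes with a window. Among the 12 were Dnaja1, Dnaja4, Dnajb4, Dnajb6, Dnajc10, Hspb1, Hspb3 and Hsph1, and the windows of Dnajb1 held none. Such matches describe letters and say nothing about binding in these cells.

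Irradiation was compared with sham treatment within each strain and as the mean of both strains. In C57BL/6 no chaperone gene rose and 1 fell, Dnajc7, and in Balb/c none rose and 1 fell, Dnajc16 (limma, adjusted p under 0.05). This is 2% of the 50 genes in each strain. Of all genes tested 3.67% passed in C57BL/6, with 2.21% higher and 1.46% lower, and 6.15% in Balb/c, with 3.26% higher and 2.89% lower. At an unadjusted p under 0.05 there were 3 higher and 7 lower chaperone genes in C57BL/6, where 10.3% and 11% of all genes were so, and 2 higher and 4 lower in Balb/c, against 9.82% and 13%. In the mean of both strains 2 chaperone genes rose, Hspa2 and Dnajc10, and 4 fell, Hspb3, Dnajb1, Dnajc7 and Dnajb2. These 6 are 12% of the 50, and 15.9% of all genes tested passed the same test, 7.72% higher and 8.15% lower. At an unadjusted p under 0.05 the mean had 4 higher and 11 lower of the 50, against 14% and 17.7% of all genes. The median log2 difference of the 50 was -0.05 in C57BL/6, -0.06 in Balb/c and -0.03 in the mean, against -0.04, -0.04 and -0.05 over all genes tested. Arrays of the groups did not overlap for 7 higher and 7 lower chaperone genes in C57BL/6, where 11.4% and 15.1% of all genes did so, and for 5 higher and 6 lower in Balb/c, against 12.8% and 16.3%. In both strains at once this held for 2 higher, Hspa2 and Dnajc10, and for 3 lower, Hspb3, Dnajb1 and Hspa4, against 4.7% and 5.66% of all genes. As a group the chaperones thus stood near the background of all genes, and the calls lay in single members. In a fit of all 18193 genes with no filter Hspb3 kept its call in the mean, while Dnajc7, Dnajb1, Dnajc10, Hspa2 and Dnajb2 were at adjusted p of 0.0517 to 0.126. With the 3' excess as a covariate Hspb3 and Dnajb1 kept theirs, and Dnajc7 (0.0828), Hspa2, Dnajc10 and Dnajb2 did not.

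**Figure D1:**
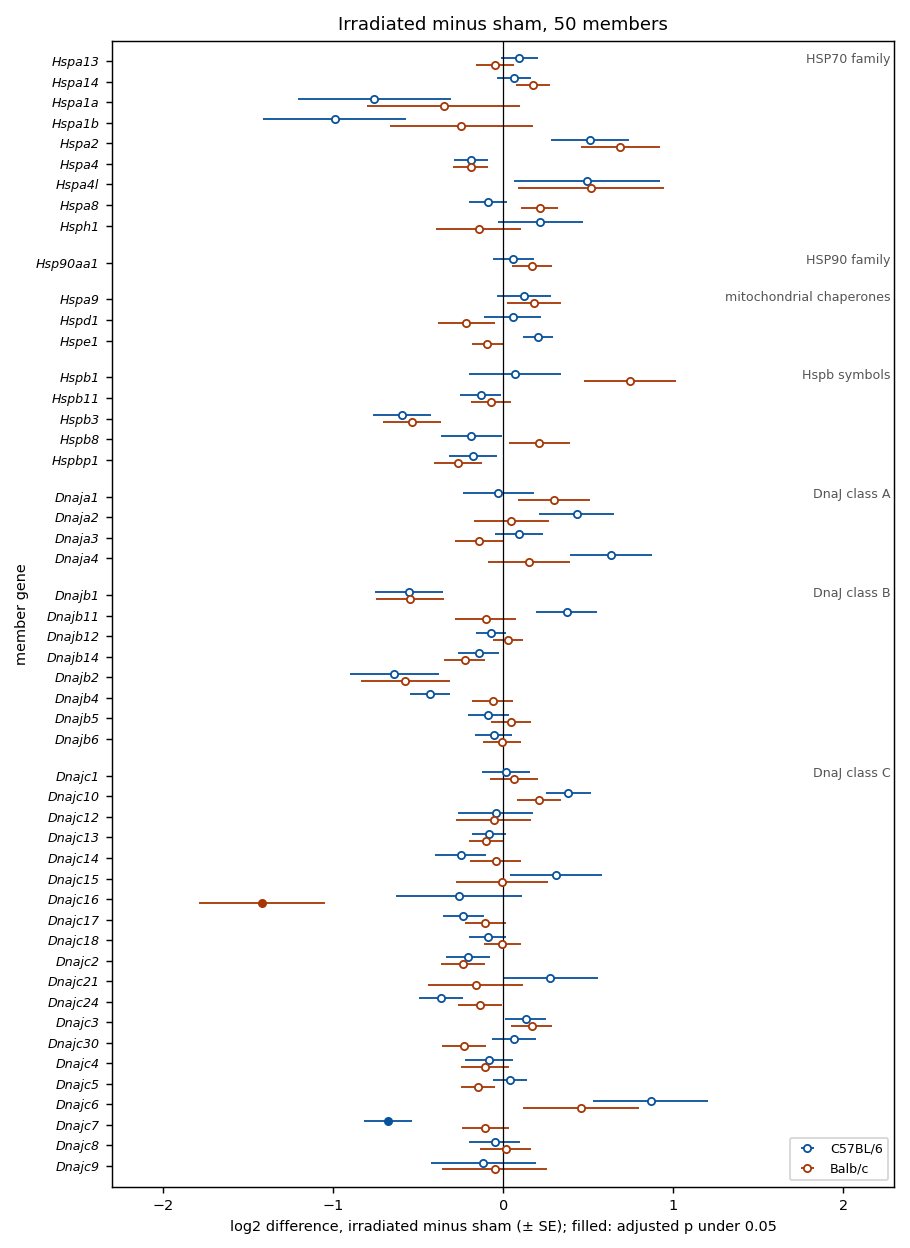
Log2 difference between irradiated and sham arrays (horizontal axis, points with bars of 1 standard error) for the 50 tested genes, ordered by protein class, in C57BL/6 (blue) and Balb/c (red). Filled points passed an adjusted p of 0.05, which only Dnajc7 in C57BL/6 and Dnajc16 in Balb/c did. The medians of the plotted differences are -0.05 and -0.06.

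In the HSP70 family, the inducible genes Hspa1a and Hspa1b passed in neither strain, and their fitted differences were negative. Hspa1b had log2 values of 11.40, 10.85 and 10.65 in C57BL/6 sham arrays and 11.11, 9.50 and 9.32 in irradiated ones. Replicates 2 and 3 of the irradiated group lay below every sham array and replicate 1 lay among them. The difference was -0.99 ± 0.42 (SE, n = 3 per group, limma, adjusted p = 0.208) and became -1.56 without C57BL/6 irradiated replicate 1 (adjusted p = 0.0265). The other probe sets of Hspa1b gave -1.03 ± 0.42 and -1.09 ± 0.64 in C57BL/6, with the same array high. In Balb/c its values were 9.97, 9.82 and 10.51 in sham and 9.63, 9.65 and 10.28 in irradiated arrays, which overlapped, at a difference of -0.25 ± 0.42.

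Hspa1a, its near copy, had values of 9.93, 9.40 and 9.05 in C57BL/6 sham and 9.79, 8.37 and 7.94 in irradiated arrays. Replicate 1 of the irradiated group was again the high one. In Balb/c the values were 9.06, 9.23 and 9.54 in sham and 9.37, 9.19 and 8.22 in irradiated arrays, where replicate 3 was the lowest. The difference was -0.76 ± 0.45 in C57BL/6 and -0.35 ± 0.45 in Balb/c (adjusted p = 0.350 and 0.696), and the mean difference of -0.55 ± 0.32 became -0.83 without C57BL/6 irradiated replicate 1 (adjusted p = 0.0497). The same array had the highest median deviation of 23 immediate early genes from their group means, 0.34, against -0.08 and -0.17 in the other irradiated C57BL/6 arrays. Balb/c irradiated replicate 3, the lowest for Hspa1a, had the lowest deviation at -0.33. For Hspa1b that array was instead the highest of the irradiated Balb/c group in every probe set, at 10.28, 7.53 and 6.31. The part of the immediate early deviations in the chaperone values was not tested. Since the coding sequences of both genes are nearly identical, their probe sets may not tell them apart.

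**Figure D2:**
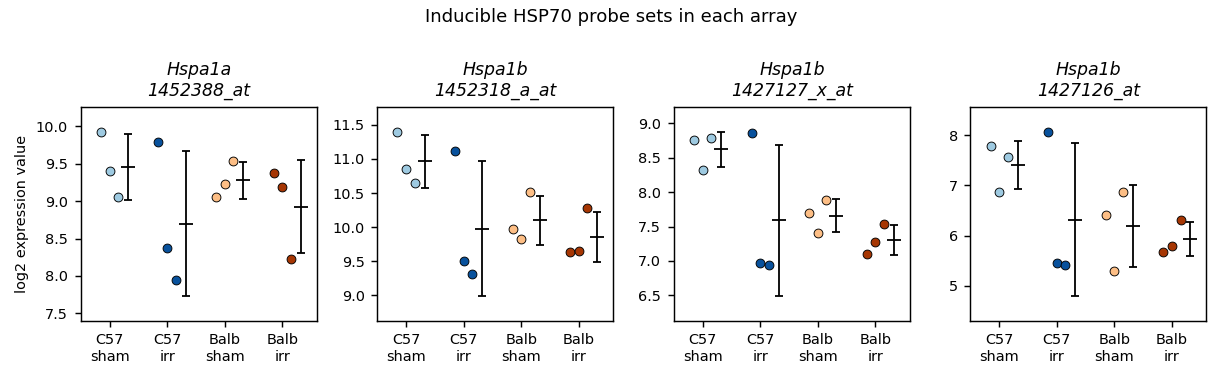
Log2 expression values (vertical axis) of the 4 probe sets of Hspa1a and Hspa1b in each array, by group, with the group mean and standard deviation as black bars; sham C57BL/6 and Balb/c are light blue and light orange, irradiated ones dark blue and dark red. In C57BL/6 irradiated mice 1 array lies among or above the sham arrays of its strain in all 4 panels (Hspa1b at 11.11 in its brightest probe set) and the other 2 lie below them.

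Hspa2, an HSP70 protein best known from the testis, rose. It had values of 6.08, 6.26 and 6.36 in C57BL/6 sham and 7.29, 6.45 and 6.50 in irradiated arrays, and of 6.18, 5.43 and 5.81 in Balb/c sham and 6.56, 6.50 and 6.43 in irradiated arrays. Every irradiated array lay above every sham array of its strain. The mean difference was 0.60 ± 0.17, a 1.52-fold rise (limma, adjusted p = 0.0337), with 0.51 ± 0.23 in C57BL/6 and 0.69 ± 0.23 in Balb/c. The call was lost without any 1 of 7 arrays, namely C57BL/6 sham replicates 1 and 2, Balb/c sham replicates 2 and 3 and each Balb/c irradiated array, at adjusted p of 0.0566 to 0.075. With the 3' excess as a covariate it was 0.54 (adjusted p = 0.106).

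The constitutive HSP70 protein Hspa8 overlapped between the C57BL/6 groups, at 14.97, 15.09 and 15.01 in sham and 15.05, 15.02 and 14.74 in irradiated arrays, a difference of -0.09 ± 0.11. In Balb/c it had values of 14.63, 14.73 and 14.83 in sham and 14.88, 15.02 and 14.94 in irradiated arrays, which did not overlap. That difference of 0.21 ± 0.11 did not pass (limma, adjusted p = 0.291). Hspa4, an HSP110-type exchange factor, was lower by the same small amount in both strains, -0.19 ± 0.10 each, with no overlap of arrays. Its arrays read 12.14, 12.23 and 12.33 in C57BL/6 sham and 12.07, 11.99 and 12.07 in irradiated arrays, and of 12.12, 12.07 and 12.26 in Balb/c sham and 11.92, 12.06 and 11.90 in irradiated arrays. Its mean difference of -0.19 ± 0.07 missed the threshold (adjusted p = 0.0986).

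The other HSP110-type genes varied more. Hspa4l ranged from 6.32 to 7.36 in C57BL/6 sham and from 6.34 to 7.95 in irradiated arrays, and from 5.86 to 6.87 in Balb/c sham and from 6.39 to 7.27 in irradiated arrays, with overlap in both strains. Its brightest probe set gave a mean difference of 0.50 ± 0.30 (adjusted p = 0.282), the second 0.85 ± 0.36 and the third 1.40 ± 0.37, and with the mean of all its probe sets it passed at 0.92 (adjusted p = 0.0334). The probe sets of Hspa4l thus had the same sign and different sizes. Hsph1, the third gene of this type, had a mean difference of 0.04 ± 0.18, with a 95% interval from -0.35 to 0.42.

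Hsp90aa1, the inducible cytosolic HSP90, did not pass in any irradiation comparison. Its arrays read 13.75, 13.80 and 13.61 in C57BL/6 sham and 13.95, 13.57 and 13.81 in irradiated arrays, and of 13.60, 13.62 and 13.76 in Balb/c sham and 13.84, 13.93 and 13.72 in irradiated arrays. The groups overlapped in both strains, and the 95% interval of the mean difference ran from -0.08 to 0.30. The second and the third probe set of Hsp90aa1 gave mean differences of the opposite sign, -0.28 ± 0.13 and -0.33 ± 0.12, which did not pass either (adjusted p = 0.197 and 0.106 over all probe sets).

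None of the mitochondrial chaperones passed after irradiation, and none did at an unadjusted p under 0.05 either, in limma with all 12 arrays. The mean differences were 0.15 ± 0.11 for Hspa9, the mitochondrial HSP70, -0.08 ± 0.12 for Hspd1, which is HSP60, and 0.06 ± 0.07 for Hspe1, which is HSP10. The 95% interval for Hspe1 ran from -0.09 to 0.20, the narrowest of the 3. In C57BL/6 alone, Hspe1 had values of 10.78, 10.82 and 10.73 in sham and 10.96, 10.95 and 11.05 in irradiated arrays, which did not overlap, at a difference of 0.21 ± 0.09 that did not pass (adjusted p = 0.234).

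Among the small heat shock proteins, Hspb3, otherwise known from muscle, fell in the mean of both strains. Its arrays read 10.01, 9.68 and 9.61 in C57BL/6 sham and 9.48, 9.15 and 8.89 in irradiated arrays, and of 9.83, 9.81 and 9.59 in Balb/c sham and 9.18, 9.35 and 9.11 in irradiated arrays. All 6 irradiated arrays lay below all 6 sham arrays. The difference was -0.60 ± 0.17 in C57BL/6 and -0.53 ± 0.17 in Balb/c (adjusted p = 0.0733 and 0.0817), and -0.56 ± 0.12 in the mean, a 1.48-fold fall (limma, adjusted p = 0.0103). The mean kept its call without any single array, at adjusted p up to 0.0281, and under the other 11 settings tried, up to 0.0319.

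Hspb1, the chaperone also called HSP25, had values of 7.32, 6.77 and 7.29 in Balb/c sham and 8.12, 7.62 and 7.87 in irradiated arrays, which did not overlap. In C57BL/6 it had 8.29, 7.90 and 7.10 in sham and 7.92, 7.78 and 7.80 in irradiated arrays, where the sham mice spanned the irradiated ones. The differences of 0.74 ± 0.27 in Balb/c and 0.07 ± 0.27 in C57BL/6 did not pass (adjusted p = 0.131 and 0.906), nor did the difference between them, 0.68 ± 0.38 (adjusted p = 0.670). Hspb8, which works with Bag3 in selective autophagy, had a mean difference of 0.01 ± 0.13.

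None of the 4 class A J-domain proteins passed, and 1, Dnaja4, did so at an unadjusted p under 0.05, in C57BL/6 and in the mean. Dnaja1, a cytosolic partner of Hspa8, had a mean difference of 0.14 ± 0.15. In class B, 2 of 8 fell and none rose in the mean of both strains, where 8.15% of all genes fell and 7.72% rose. Dnajb1, the main cytosolic HSP40 and partner of HSP70 in refolding, had values of 12.31, 12.24 and 11.83 in C57BL/6 sham and 11.76, 11.56 and 11.39 in irradiated arrays. In Balb/c it had values of 11.79, 11.77 and 12.31 in sham and 11.27, 11.70 and 11.27 in irradiated arrays. No irradiated array reached a sham array of its own strain, although Balb/c irradiated replicate 2 came close. The difference was -0.55 ± 0.20 in each strain (adjusted p = 0.139 and 0.128) and -0.55 ± 0.14 in the mean, a 1.46-fold fall (limma, adjusted p = 0.0235). Its second probe set gave -1.37 ± 0.34 in C57BL/6, -0.82 ± 0.34 in Balb/c and -1.09 ± 0.24 in the mean (adjusted p = 0.0159 over all probe sets). With the brightest probe set the call was lost without C57BL/6 sham replicate 1, C57BL/6 irradiated replicate 3 or Balb/c irradiated replicates 1 or 3, at adjusted p of 0.0505 to 0.0583.

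Dnajb2, a J-domain protein with ubiquitin-binding motifs that is abundant in neurons, had values of 7.71, 7.43 and 7.08 in C57BL/6 sham and 7.08, 6.64 and 6.58 in irradiated arrays. In Balb/c it had values of 7.33, 6.45 and 7.14 in sham and 6.67, 6.07 and 6.45 in irradiated arrays, so that sham replicate 2 lay among the irradiated mice. The mean difference was -0.61 ± 0.18, a 1.52-fold fall (limma, adjusted p = 0.0450). The call of Dnajb2 held without C57BL/6 sham replicate 3, C57BL/6 irradiated replicate 1, Balb/c sham replicate 2 or Balb/c irradiated replicate 1, and was lost without any 1 of the other 8 arrays, at adjusted p of 0.0767 to 0.102. With the 3' excess as a covariate it was -0.54 (adjusted p = 0.136). Neuron markers, 9 of 10 on the array with Nefm near the bottom outside C57BL/6 sham arrays, summed to 10.25 to 11.30 and 10.11 to 12.01 in C57BL/6 sham and irradiated arrays and to 9.99 to 11.63 and 10.36 to 11.10 in Balb/c, so their ranges overlapped between treatments.

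Dnajb4, another cytosolic HSP40, did not pass after irradiation in the fit of all 12 arrays. Its values in C57BL/6 were 10.72, 10.57 and 10.54 in sham and 10.20, 10.19 and 10.15 in irradiated arrays, which did not overlap, and in Balb/c 10.75, 10.67 and 10.93 in sham and 10.58, 10.94 and 10.66 in irradiated arrays, which did. The difference of -0.43 ± 0.12 in C57BL/6 did not pass (limma, adjusted p = 0.0771), against -0.06 ± 0.12 in Balb/c. The mean difference was -0.25 ± 0.09 (adjusted p = 0.0781), and it passed at -0.34 with the 3' excess as a covariate (0.0327) and at -0.30 without Balb/c irradiated replicate 2 (0.0349). The difference between the strains, 0.37 ± 0.17, did not pass (adjusted p = 0.625). Dnajb6, which restrains protein aggregation, had a mean difference of -0.03 ± 0.08, with a 95% interval from -0.20 to 0.14.

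In class C, Dnajc7, which links HSP70 and HSP90 through tetratricopeptide repeats, fell in C57BL/6. It had values of 10.19, 10.40 and 10.24 in sham and 9.59, 9.67 and 9.54 in irradiated arrays, with every irradiated array below every sham array. In Balb/c the values of 9.87, 9.66 and 10.21 in sham and 9.94, 9.70 and 9.79 in irradiated arrays overlapped. The difference was -0.68 ± 0.14 in C57BL/6, a 1.60-fold fall (limma, adjusted p = 0.0293), -0.10 ± 0.14 in Balb/c (adjusted p = 0.713) and -0.39 ± 0.10 in the mean (adjusted p = 0.0254). The difference between the strains was 0.57 ± 0.20 and did not pass (adjusted p = 0.558). In the fit with no filter it was not called in C57BL/6 (adjusted p = 0.0614). The C57BL/6 call was lost without any 1 of the 3 sham arrays or irradiated replicates 1 or 3, at adjusted p of 0.053 to 0.111. The mean call was lost without C57BL/6 sham replicate 2, C57BL/6 irradiated replicate 3 or Balb/c irradiated replicates 2 or 3, at 0.0513 to 0.0593.

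Dnajc16, a J-domain protein of the endoplasmic reticulum, fell in Balb/c, from 7.68, 8.36 and 7.77 in sham to 7.29, 6.68 and 5.59 in irradiated arrays. The irradiated values did not overlap the sham values and spread over more than 1 log2 unit. The difference was -1.42 ± 0.37, a 2.67-fold fall (limma, adjusted p = 0.0471), against -0.26 ± 0.37 in C57BL/6, where its values were 8.02, 8.66 and 8.16 in sham and 8.23, 7.83 and 7.99 in irradiated arrays. The difference between the strains, -1.16 ± 0.52, did not pass (adjusted p = 0.618). The mean difference of both strains was -0.84 and just missed the threshold (adjusted p = 0.0512). It passed in some alternatives, such as the mean of all probe sets (0.0354), and not in others, such as the replicate block (0.0711). The Balb/c call of Dnajc16 held without Balb/c irradiated replicate 1 and was lost without any 1 of the other 11 arrays, at adjusted p of 0.0534 to 0.156, with a difference of -0.95 without Balb/c irradiated replicate 3. The 2 lowest values came from the 2 arrays with the raised 3' excess, and with that excess as a covariate the difference was -1.10 (adjusted p = 0.301). Its second probe set gave -0.82 ± 0.33 in Balb/c (adjusted p = 0.187 over all probe sets).

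Dnajc10, a disulfide reductase of the endoplasmic reticulum that partners the HSP70 protein there, rose slightly. Its arrays read 9.02, 9.47 and 9.30 in C57BL/6 sham and 9.71, 9.54 and 9.68 in irradiated arrays, and of 10.32, 10.21 and 10.40 in Balb/c sham and 10.48, 10.60 and 10.49 in irradiated arrays. Irradiated arrays lay above sham arrays within each strain, and the strains lay further apart than the treatments. The mean difference was 0.30 ± 0.09, a 1.23-fold rise (limma, adjusted p = 0.0463). The call held without C57BL/6 sham replicate 2 or irradiated replicate 2 and was lost without any 1 of the other 10 arrays, at adjusted p of 0.0595 to 0.102, with arrays centred on their medians (0.0547) and with the 3' excess as a covariate (0.131).

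**Figure D3:**
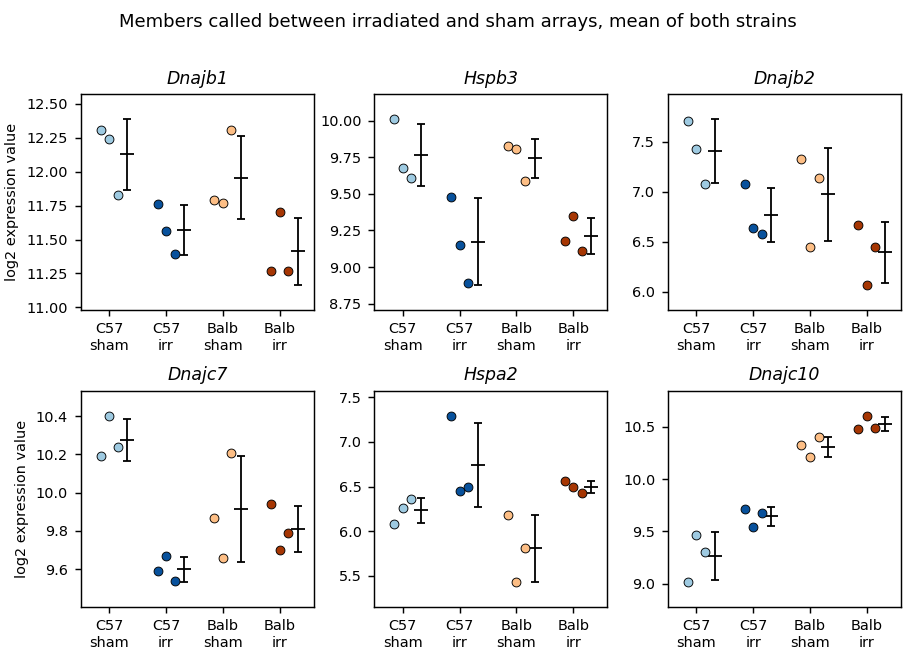
Log2 expression values (vertical axis) of the 6 genes that passed in the mean of both strains, 1 point per array, with the group mean and standard deviation as black bars; sham C57BL/6 and Balb/c are light blue and light orange, irradiated ones dark blue and dark red. For Dnajb1 and Hspb3 every irradiated array lies below every sham array of its strain, and the Dnajc7 groups are apart in C57BL/6 and overlap in Balb/c.

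Among the genes that did not exceed the filter, Dnajc28 was singled out after its values were seen. It had values of 3.86 to 4.10 in C57BL/6 sham and 2.94 to 3.32 in irradiated arrays, and of 3.49 to 3.68 in Balb/c sham and 2.83 to 3.13 in irradiated arrays. All irradiated arrays were below all sham arrays, close to the bottom of the scale. In a fit of all 18193 genes with no filter it passed in C57BL/6 at -0.83 (limma, adjusted p = 0.0274) and in the mean of both strains at -0.72 (adjusted p = 0.00501).

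The textbook targets of heat shock factor 1 among these genes were described as a list of 14, of which 13 were tested. In the mean of both strains 1 of the 13 fell, Dnajb1, and none rose, which is 7.69% against the 15.9% of all genes tested, and in neither strain alone did any pass. At an unadjusted p under 0.05 there were 3 lower in C57BL/6, and 1 higher and 1 lower in Balb/c, of the 13, against 11% of all genes lower in C57BL/6 and 9.82% higher and 13% lower in Balb/c. Their median log2 difference was -0.03 in C57BL/6, -0.06 in Balb/c and 0.04 in the mean. Of 48 partners of these chaperones that are outside the set, 41 were tested, and 3 passed in the mean of both strains. This is 7.32% against 15.9% of all genes tested. Bag1, an HSP70 exchange factor, rose by 0.36 ± 0.07 (limma, adjusted p = 0.00632), Serpinh1, the collagen chaperone, rose by 0.97 ± 0.25 (adjusted p = 0.0248), and Bag3, which pairs with Hspb8, fell by 0.33 ± 0.10 (adjusted p = 0.0462). The partners had a median of -0.09. By contrast, of 23 immediate early genes, such as Jun and Atf3, 12 fell, or 52.2%, and none rose in the same comparison. Of all genes tested 8.15% fell and 7.72% rose. The median was -0.05 over all genes tested and -0.41 over the immediate early genes. Dnajb1 and these genes were lower in the same irradiated groups, and the part of 1 in the other was not tested.

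The second axis of the design was the strain. In sham mice 4 chaperone genes were higher in Balb/c than in C57BL/6, namely Hspe1, Dnajc10, Dnajb14 and Dnajc30, and none was lower (limma, adjusted p under 0.05). These are 8% of the 50, and 10.5% of all genes tested passed, 5.22% higher and 5.24% lower. At an unadjusted p under 0.05 there were 5 higher and 3 lower of the 50, against 12.8% and 10% of all genes. In irradiated mice 4 were higher in Balb/c, Dnajc10, Hspe1, Dnajb14 and Dnajb4, and Dnajc16 was lower, or 10% against 8.97% of all genes, of which 4.38% were higher and 4.59% lower. The median strain difference of the 50 was 0.03 in sham and 0.06 in irradiated arrays, against 0.04 and 0.02 over all genes tested. Arrays of the strains did not overlap for 6 higher and 2 lower chaperone genes in sham mice, where 16.3% and 12.3% of all genes did so, and for 11 higher and 2 lower in irradiated mice, against 15.1% and 12.3%. Within each treatment the strain comparison uses the same arrays as the irradiation comparison, so the results are not independent. Some cell markers also differed between sham strains: neutrophil markers summed to 8.84 to 11.19 in C57BL/6 and 6.82 to 7.36 in Balb/c, and the 9 border-associated macrophage markers, none near the bottom, to 13.33 to 14.45 and 12.96 to 13.19. S100a8, S100a9, Pf4, Clec10a, Cd79b and the microglial marker Olfml3 passed there, and the part of the marked cells in the strain results was not tested. Across all settings tried, Hspe1 and Dnajc10 in both treatments and Dnajb14 in sham mice kept their calls, except with the next brightest probe set for Dnajc10 in both treatments and for Hspe1 in irradiated mice. With the replicate number as a block, the calls between irradiated strains held for Dnajc10, Hspe1, Dnajb14 and Dnajc16. Their adjusted p was then 0.0142, 0.0238, 0.0478 and 0.0176 (limma).

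**Figure D4:**
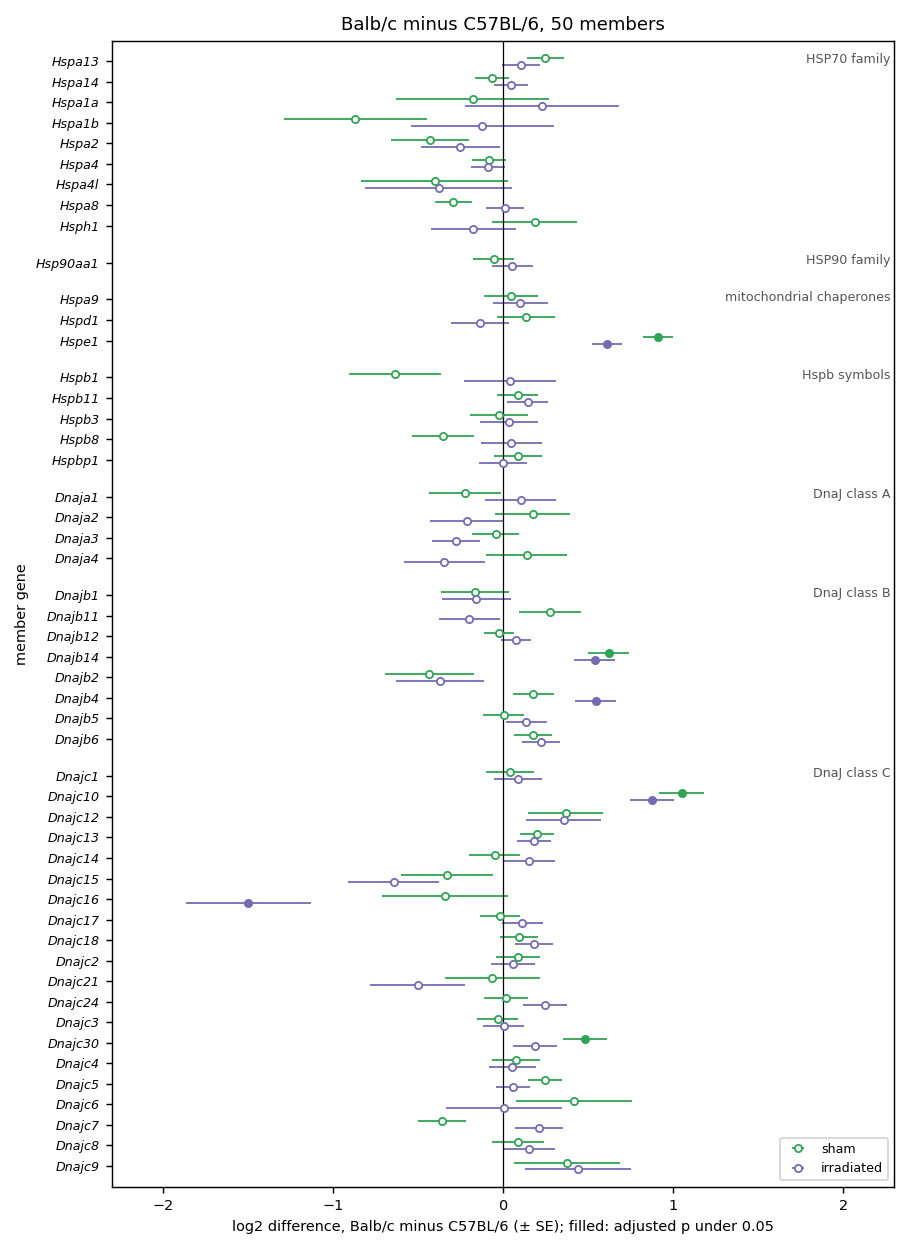
Log2 difference between Balb/c and C57BL/6 (horizontal axis, points with bars of 1 standard error) for the 50 tested genes, ordered by protein class, in sham (green) and irradiated mice (purple). Filled points passed an adjusted p of 0.05, and Hspe1, Dnajb14 and Dnajc10 are filled in both treatments.

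Hspe1, the lid of the mitochondrial HSP60 chamber, had values of 10.78, 10.82 and 10.73 in C57BL/6 and 11.72, 11.65 and 11.70 in Balb/c sham arrays. In irradiated mice it had values of 10.96, 10.95 and 11.05 in C57BL/6 and 11.70, 11.59 and 11.50 in Balb/c. Every Balb/c array lay above every C57BL/6 array, in sham and in irradiated mice. The difference was 0.91 ± 0.09 in sham mice, or 1.88-fold (limma, adjusted p = 9.46e-05), and 0.61 ± 0.09 in irradiated mice, or 1.53-fold (adjusted p = 0.00186). Its second probe set gave 0.73 ± 0.15 in sham mice (adjusted p = 0.00831 over all probe sets) and 0.35 ± 0.15 in irradiated mice, which did not pass (adjusted p = 0.182). Neither call was lost without any single array, at adjusted p up to 0.000885 in sham and 0.0104 in irradiated mice. The fall of the strain difference after irradiation, -0.30 ± 0.13, did not pass (adjusted p = 0.617).

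Hspd1, which forms the chamber and faces Hspe1 across the shared upstream region printed above, did not show that difference. Its arrays read 10.43, 10.43 and 10.42 in C57BL/6 and 10.40, 10.30 and 10.99 in Balb/c sham arrays, and of 10.33, 10.50 and 10.62 in C57BL/6 and 10.30, 10.32 and 10.42 in Balb/c irradiated arrays. The strains overlapped in both treatments, with Balb/c sham replicate 3 as the highest array. The strain difference of Hspd1 was 0.13 ± 0.17 in sham and -0.14 ± 0.17 in irradiated mice (adjusted p = 0.705 and 0.691). The strain difference of Hspe1 exceeded that of Hspd1 by 0.76 on the log2 scale, averaged over both treatments. The pair was singled out after its values were seen, so this is a description with no test. Hspa9 differed between strains by 0.04 ± 0.16 in sham and 0.10 ± 0.16 in irradiated mice.

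Dnajc10 had the largest strain difference among the genes that passed in sham mice. The values of 9.02 to 9.47 in C57BL/6 and 10.21 to 10.40 in Balb/c sham arrays did not overlap, nor did 9.54 to 9.71 and 10.48 to 10.60 in irradiated arrays. The difference was 1.05 ± 0.13 in sham mice, or 2.07-fold (limma, adjusted p = 0.000305), and 0.87 ± 0.13 in irradiated mice, or 1.83-fold (adjusted p = 0.0013), and neither call was lost without any single array. The second probe set of Dnajc10 gave 0.81 ± 0.24 in sham mice and 0.58 ± 0.24 in irradiated mice, in the same direction and past no threshold (adjusted p = 0.0564 and 0.179 over all probe sets).

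Dnajb14, a J-domain protein of the endoplasmic reticulum membrane, had values of 11.00, 11.12 and 10.88 in C57BL/6 and 11.75, 11.65 and 11.46 in Balb/c sham arrays. In irradiated mice it had values of 10.76, 10.84 and 10.97 in C57BL/6 and 11.46, 11.41 and 11.30 in Balb/c, again with no overlap. The difference was 0.62 ± 0.12 in sham mice, or 1.54-fold (limma, adjusted p = 0.00579), and 0.54 ± 0.12 in irradiated mice (adjusted p = 0.015). Its second probe set gave 0.92 ± 0.24 in sham mice (adjusted p = 0.0314 over all probe sets) and 0.57 ± 0.24 in irradiated mice (0.182). The sham call was kept without any single array, and the irradiated call was lost without C57BL/6 irradiated replicates 1 or 2, at adjusted p of 0.0564 and 0.0513, and with the 3' excess as a covariate (0.0688).

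Dnajc30, a mitochondrial J-domain protein tied to the respiratory chain, had values of 8.68, 8.34 and 8.74 in C57BL/6 and 9.23, 8.89 and 9.09 in Balb/c sham arrays, which did not overlap. The difference was 0.48 ± 0.13, or 1.39-fold (limma, adjusted p = 0.0438), against 0.18 ± 0.13 in irradiated mice (adjusted p = 0.470), and the change of -0.30 ± 0.19 between them did not pass (adjusted p = 0.703). The call of Dnajc30 held without C57BL/6 sham replicate 3, C57BL/6 irradiated replicate 3 or Balb/c sham replicate 2 and was lost without any 1 of the other 9 arrays, at adjusted p of 0.057 to 0.166. Lower in Balb/c sham mice without passing were Hspa1b at -0.87 ± 0.42, Hspa8 at -0.29 ± 0.11 and Hspb1 at -0.64 ± 0.27 (adjusted p = 0.258, 0.144 and 0.188). Hspb1 reached -0.97 without C57BL/6 sham replicate 3 (adjusted p = 0.0196).

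In irradiated mice Dnajb4 was higher in Balb/c by 0.54 ± 0.12, or 1.46-fold (limma, adjusted p = 0.0167), with 10.20, 10.19 and 10.15 in C57BL/6 and 10.58, 10.94 and 10.66 in Balb/c. Its sham arrays overlapped, at a difference of 0.18 ± 0.12. With the replicate number as a block it did not pass (adjusted p = 0.0574), and it was 0.34 with the 3' excess as a covariate (adjusted p = 0.294). The call was lost without C57BL/6 irradiated replicates 2 or 3 or Balb/c irradiated replicate 2, at 0.0513 to 0.059.

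Dnajc16 was lower in Balb/c irradiated mice by a difference of -1.50 ± 0.37 (limma, adjusted p = 0.0279), and was -0.34 ± 0.37 in sham mice. The groups were 8.23, 7.83 and 7.99 in C57BL/6 and 7.29, 6.68 and 5.59 in Balb/c. The second probe set gave -0.08 ± 0.33 (adjusted p = 0.922 over all probe sets), so the probe sets of Dnajc16 disagreed between strains. The call was lost without any 1 of the C57BL/6 irradiated arrays or Balb/c irradiated replicates 2 or 3, at adjusted p of 0.0533 to 0.0864, with -1.03 without the last of these.

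**Figure D5:**
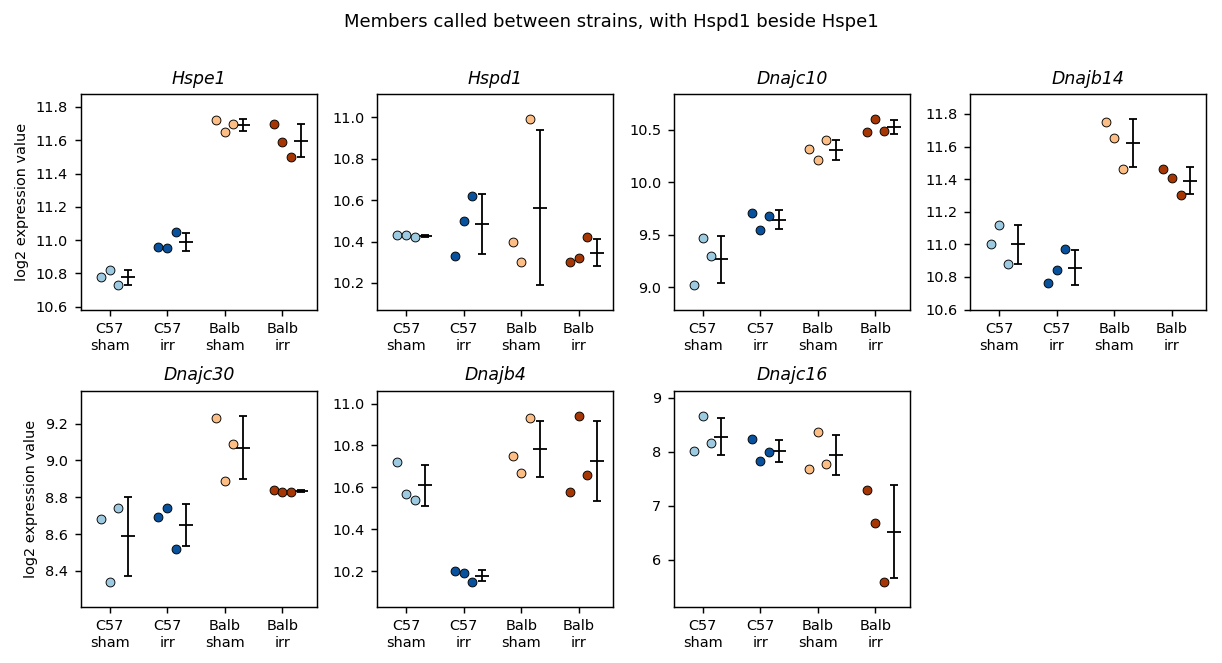
Log2 expression values (vertical axis) of the 6 genes that passed between strains in sham or irradiated mice, and of Hspd1 beside Hspe1, 1 point per array, with the group mean and standard deviation as black bars; sham C57BL/6 and Balb/c are light blue and light orange, irradiated ones dark blue and dark red. Hspe1, Dnajc10 and Dnajb14 lie higher in all Balb/c arrays, while the Hspd1 groups overlap around 10.4.

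Whether irradiation acted differently in the strains was tested as the difference of both irradiation effects. None of the 50 genes passed (limma, adjusted p under 0.05), nor did any with trend and robust estimation or array weights, and 7 of 9120 genes, or 0.0768%, passed in all, 0.0439% higher and 0.0329% lower. At an unadjusted p under 0.05 there were 3, Dnajc7 upwards and Hspe1 and Dnajc16 downwards, each with its value given above, against 3.62% of all genes upwards and 4.44% downwards. The irradiation differences that passed in 1 strain only, those of Dnajc7 and Dnajc16, were therefore not shown to differ between the strains. For Dnajc7 the 95% interval of the difference between strains ran from 0.13 to 1.01 and for Dnajb4 from -0.01 to 0.75. With 3 arrays in each group these intervals are wide.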

How the data were processed

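The deposited table holds 45101 probe sets in 12 arrays as log2 values, and the submitters' processing notes name GCRMA without a version. RNA had an integrity number above 7.4 and passed 2 rounds of linear amplification, per the labels' protocols. Of the probe sets 64 were controls, 34945 had 1 symbol in the platform annotation, 932 several and 9160 none. The probe set of highest average signal stood for each gene. Group means were modelled by limma (version 3.58.1 under R 4.3.3; lmFit, then eBayes), which left 8 residual degrees of freedom. Benjamini-Hochberg adjustment covered the 9120 tested genes separately in each of 6 comparisons, and a call needs an adjusted p under 0.05. Errors of differences are standard errors. The method was tested on simulated data with the within-group spread of these genes. It recovered 70.8% of 2-fold irradiation differences in C57BL/6 and 70% in Balb/c. In the mean of both strains it recovered 86.6%, and for the difference between strains 41.4%. Smaller differences were not simulated. The members, lists and alternatives were chosen with earlier results of these data known. The genes named are the 11 called in any comparison and 16 fixed ones, together 24; others are marked where they were chosen after their values were seen. Lists are described by counts and medians, without a test.

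Replicate numbers come from the titles, and no label says that they pair animals. Deviations of same-numbered arrays correlated at 0.217, 0.447 and 0.323 between the irradiated groups of both strains. In the other pairs of groups they correlated at -0.0478 to 0.283, so the ranges overlapped. The main fit used no pairing, and the replicate block was an alternative. Each array is 1 animal per the labels, and no array date was used. The number of arrays limits the precision. Alternatives were the filter, centring, a floor at 4, the mean or next brightest of a gene's probe sets, trend and robust estimation, array weights, the compared groups alone, the replicate block, the 3' minus 5' covariate, a threshold of 0.10 and leaving out arrays. Promoter windows were matched by symbol for 41 of the 50 tested genes.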

Additional observations from a re-analysis of the deposited data

How the results depend on the processing

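No value of a named gene that passed the test changed its direction under any alternative. Among the single-gene results of all alternatives, 3238 kept their side of the threshold and, where not called, moved by at most 1 standard error, 121 lost a call, 24 gained one and 109 moved by over 1 standard error without a call. The count of chaperone genes called in C57BL/6 after irradiation, 1, became 0 in a fit of the compared groups alone, with the replicate block and with 2 arrays left out together (irradiated C57BL/6 number 3, irradiated Balb/c number 2), and 3 at a threshold of 0.10. The count of 1 in Balb/c became 0 with no filter, with the compared groups alone, with the replicate block, with the 3' minus 5' covariate and without both arrays, and 2 with array weights and at a threshold of 0.10. The count of 6 in the mean became 2 with no filter and without both arrays, 3 with the covariate and 11 at a threshold of 0.10. It became 9 with the mean of all probe sets, among them Dnajc2, singled out after its values were seen, at -0.37 (limma, adjusted p = 0.0145). The count of 5 between irradiated strains became 3 with the mean of all probe sets and 2 with the compared groups alone, with the covariate and without both arrays. Leaving out each array in turn gave 0 to 2 in C57BL/6, 0 to 1 in Balb/c, 1 to 7 in the mean, 3 to 5 between sham and 2 to 5 between irradiated strains, and 0 for the difference between strains. The count in the mean was 1 without Balb/c irradiated replicate 3, 2 without the third irradiated C57BL/6 array, and 3 without sham replicate 1 of C57BL/6, Balb/c sham replicate 3 or Balb/c irradiated replicate 2. Between irradiated strains it was 2 without the second irradiated C57BL/6 array, and 3 without the first or the third of them or without Balb/c irradiated replicate 2. With the replicate block the counts were 0, 0, 6, 3, 4 and 0 in the order of the 2 strains, the mean, sham strains, irradiated strains and their difference. In the mean 4 genes passed both ways and the block brought in Dnaja4 and Hspa1b and ended the calls of Hspa2 (adjusted p of 0.0663) and Dnajc10 (0.121), Dnajb4 was the single call lost between irradiated strains, and Dnajc30 lost its call between sham strains at an adjusted p of 0.0504 with limma. Array weights, no filter, the floor and the covariate left Hspe1, Dnajc10 and Dnajb14 called between sham strains, and only the next brightest probe set of Dnajc10 ended its call there (0.0529). The cause of these changes was not tested. Signals of the 19 genes below the filter lay near the bottom of the scale, which limits how low their values can go.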
